A study of Mus musculus with 18 samples.

Results

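Hmgcs1, Idi1, Fdft1, Sqle, Lss and Dhcr7, enzymes of cholesterol synthesis, and Insig1 and Srebf2, which regulate that synthesis, were followed in mouse L929 cells, an established line of fibroblasts. The 8 genes are among 57180 in the deposited table, and all 8 passed the filter on low counts. They were chosen by measured values from these libraries: they are targets of the transcription factor SREBP2 for which a fall with AOA without a return with aspartate had been seen, across all 6 groups. The AOA and aspartate differences of the 8 genes are therefore given as a description, with no test. The name sterol synthesis and LDL uptake genes covers, for these 8, synthesis and its regulators only.

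RNA was sequenced from 18 libraries, 3 independent cultures in each of 6 groups, all of wild-type genotype. The groups were Mock (labelled DMSO), AOA, AOA with aspartate (AOA+Asp), HT-DNA, HT-DNA+AOA, and HT-DNA+AOA+Asp. AOA (aminooxyacetic acid, an aminotransferase inhibitor; such an enzyme makes aspartate) was given at 0.5 mM for 1 h before HT-DNA. HT-DNA (herring testis DNA, a ligand of the DNA sensor cGAS) was transfected with Lipofectamine at 0.5 μg/ml for 6 h, and aspartate was added at 20 mM. No group received aspartate alone, so an effect of aspartate is always one on top of AOA. Whether the groups without HT-DNA received the lipid carrier is not stated, so HT-DNA and carrier cannot be told apart. The time from AOA to harvest in the groups without HT-DNA is not given in the sources used here. A difference in that time cannot be told apart from HT-DNA on top of AOA, or from HT-DNA in its differences with AOA.

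Cholesterol is built from acetyl-CoA through mevalonate, the isoprenoids, squalene and lanosterol. When sterols in the endoplasmic reticulum are scarce, SCAP carries SREBP2 to the Golgi, where proteases release its active part, which then switches on the genes of sterol synthesis and uptake. When sterols are plentiful, INSIG1 holds SCAP and SREBP2 back in the endoplasmic reticulum, and because Insig1 is itself a target of SREBP2, its RNA is commonly read as a gauge of this pathway.

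SREBP2 is known to bind a sterol regulatory element in promoters, often beside sites for NF-Y and Sp1, so the stretches upstream of 4 of the genes are shown here to let their control regions be compared. They come from RefSeq (build GRCm38.p6, plus strand, which is the strand of all 4 genes), and each ends before the earlier of the RefSeq and GENCODE gene starts. Capitals mark TCACNCCAC with at most 1 mismatch and the NF-Y box CCAAT, on either strand (ATTGG where it lies on the other strand). The stretches are chr13:119690101-119690350 for Hmgcs1, chr15:82147019-82147180 for Srebf2, chr5:28071162-28071362 for Insig1 and chr10:76531355-76531587 for Lss.
Hmgcs1: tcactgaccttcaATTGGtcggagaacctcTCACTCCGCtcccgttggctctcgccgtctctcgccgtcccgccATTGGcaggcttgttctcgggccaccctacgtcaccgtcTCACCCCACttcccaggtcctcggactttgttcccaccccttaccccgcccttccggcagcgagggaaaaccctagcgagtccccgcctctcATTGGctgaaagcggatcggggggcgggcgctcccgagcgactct
Srebf2: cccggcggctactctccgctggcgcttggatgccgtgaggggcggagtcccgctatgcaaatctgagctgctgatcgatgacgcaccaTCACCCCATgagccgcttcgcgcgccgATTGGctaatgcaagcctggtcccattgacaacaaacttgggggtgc
Insig1: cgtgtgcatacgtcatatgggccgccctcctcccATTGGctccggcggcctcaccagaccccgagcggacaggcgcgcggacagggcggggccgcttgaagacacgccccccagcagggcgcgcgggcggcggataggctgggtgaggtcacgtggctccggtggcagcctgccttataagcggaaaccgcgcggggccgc
Lss: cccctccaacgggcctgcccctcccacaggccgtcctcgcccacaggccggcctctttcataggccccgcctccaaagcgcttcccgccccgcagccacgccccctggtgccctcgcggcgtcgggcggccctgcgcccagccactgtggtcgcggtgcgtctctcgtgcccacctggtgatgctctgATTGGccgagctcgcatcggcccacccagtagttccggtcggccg

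RefSeq windows of 250 bases before the start were found for 6 of the 8 genes, and not for Sqle and Fdft1. TCACNCCAC, searched on both strands, occurred without mismatch in 1 of the 6, Hmgcs1, where it lies 137 to 129 bases before the start, and in 1.22% of the 27025 genes with a window. With at most 1 mismatch it occurred in 4 of the 6 (Hmgcs1, Srebf2, Insig1 and a Dhcr7 window) and in 23% of all genes; the match of Insig1 lies 9 to 1 bases before its RefSeq start, beyond the end of the stretch printed above. The NF-Y box CCAAT occurred in 6 of 6 and in 37.5% of all genes, the GC box GGGCGG in 6 of 6 and in 35.4%, and the E-box CACGTG in 2 of 6 (Insig1 and Dhcr7) and in 6.86%. These matches describe letters in the windows and are not measured binding sites. Dhcr7 has 3 RefSeq windows, so it had more bases searched than the others.

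Libraries held 17901580 to 24057322 counts on genes. The 3 HT-DNA+AOA libraries differed most among themselves: their chi-square over its degrees of freedom was 18.3 to 67.2 (1 if only counting error were present), against 2.78 to 13.3 within the other groups. Every value that rests on HT-DNA+AOA was therefore also computed without each of its libraries. Of 9 fibroblast markers, 8 were present in all libraries, with Vim at 42936 to 66129 counts, and Thy1 had at most 4 counts. Markers of other cell types were near 0 (Ptprc 0 counts in every library, and Epcam, Cdh5, Cdh1, Pecam1 and Krt8 at most 10), but the macrophage gene Cd68 had 2159 to 3081 counts in every library.

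In Mock cells the 8 genes spanned a range of levels. On the scale of CPM (counts relative to TMM-scaled library size) per kilobase of the longest coding transcript, Insig1 stood highest at 67.4 ± 0.89 (SD, n = 3) and Dhcr7, the last enzyme of one route to cholesterol, lowest at 8.96 ± 0.43. In between were Sqle at 47.2 ± 2.07, Srebf2 at 39.9 ± 0.56, Idi1 at 38.9 ± 1.29, Lss at 29.5 ± 0.64, Hmgcs1 at 24.98 ± 0.35 and Fdft1 at 17.0 ± 0.50 (SD, n = 3). Srebf2 and Idi1 were neighbours that did not differ beyond their spread. All values that follow are CPM not divided by length, to be compared between groups and not between genes. CPM are shares of the reads of a culture, so they do not show how many cells or how much total RNA it held. Fewer cells expressing a gene and less of its RNA per cell cannot be told apart.

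With AOA alone all 8 genes were lower than in Mock, from a log2 fold change of -2.36 for Insig1 to -0.33 for Srebf2, with a median of -1.01 against 0.015 over all genes tested. Their replicates did not overlap with Mock for 8 of 8, which held, in the lower direction, for 29.6% of all genes tested. This is the contrast by which the genes were chosen. In the same contrast 45.7% of all genes tested were called at an adjusted p under 0.05. With aspartate added to AOA, 4 genes lay part of the way back toward Mock (Hmgcs1, Idi1, Dhcr7 and Insig1) and 4 did not (Fdft1, Sqle, Lss and Srebf2), and the AOA+Asp libraries of 8 of 8 lay below those of Mock, as for 15.6% of all genes tested.

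**Figure D1:**
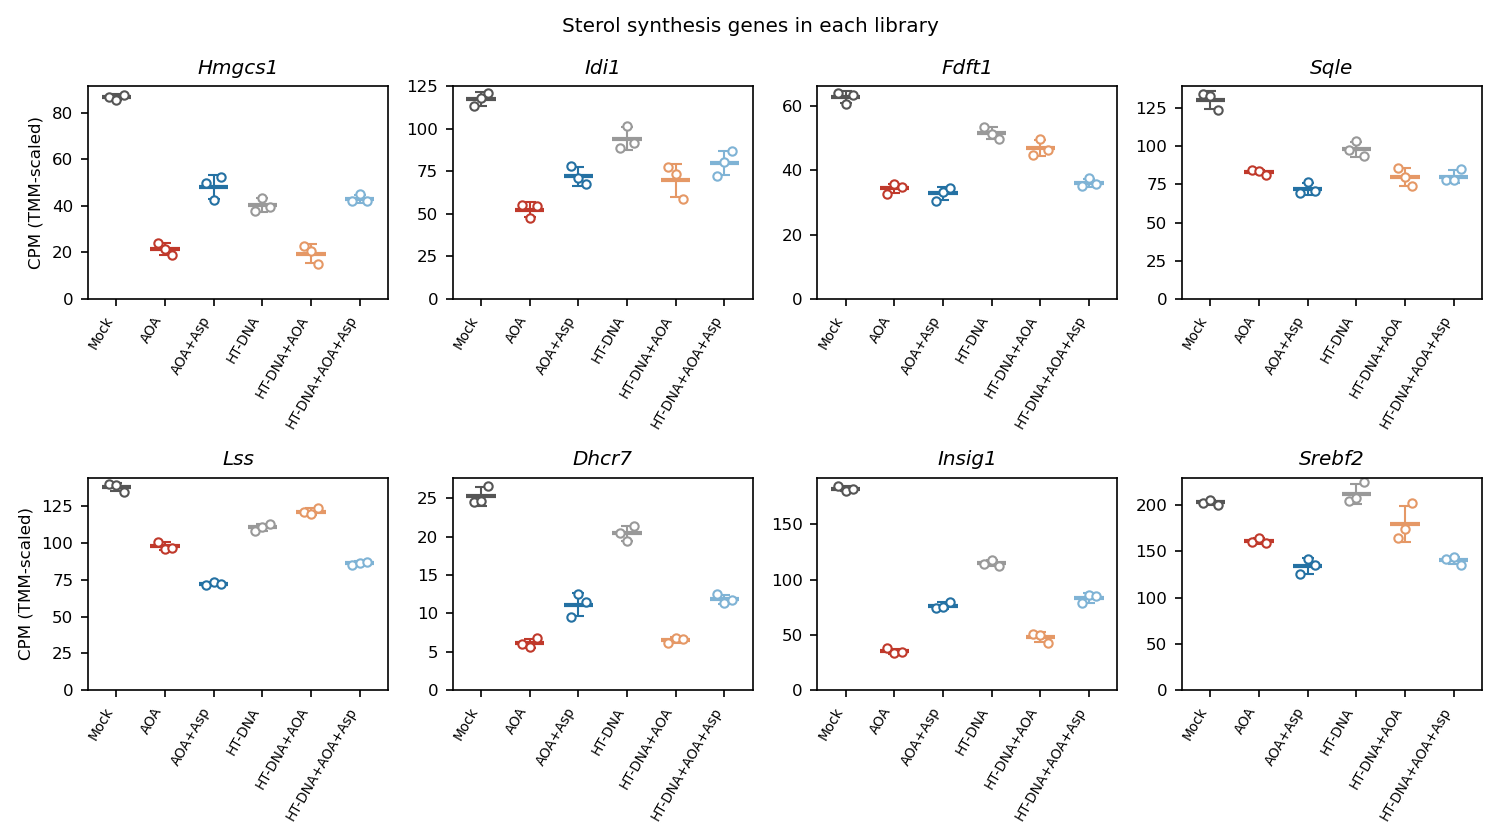
CPM of the 8 genes in each of the 18 libraries (open circles), by group along the horizontal axis, with the mean (thick bar) and SD of 3 libraries; each panel has its own vertical axis from 0. Insig1 had a mean of 181.9 CPM in Mock, 35.4 CPM with AOA and 76.3 CPM with aspartate added, while Lss had 137.7, 97.6 and 72.2 CPM.

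Hmgcs1 (ENSMUSG00000093930) makes HMG-CoA, an early intermediate of the mevalonate steps. It had 86.6, 85.3 and 87.7 CPM in the 3 Mock libraries, 23.96, 21.5 and 18.8 CPM with AOA, and 49.6, 42.4 and 52.4 CPM with AOA+Asp. The 3 groups did not overlap, and the AOA+Asp libraries lay between the other groups. On the log2 scale the fold change was -2.01 (SE 0.12) with AOA against Mock and 1.17 (SE 0.12) with aspartate against AOA. With aspartate, 41.1% of the difference in mean CPM between Mock and AOA was made up, the largest share among the 8 genes, and AOA+Asp stood at 55.7% of Mock. Hmgcs1 shares 557 exon bases with the antisense gene Gm48342, and 13.1% of its 31-base sequences are found elsewhere among genes.

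Idi1 (ENSMUSG00000058258) interconverts the 5-carbon isoprenoid units from which longer chains are built. Its Mock libraries had 113.4, 118.4 and 121.1 CPM, the AOA libraries 55.4, 47.6 and 54.7 CPM, and the AOA+Asp libraries 78.3, 70.9 and 67.5 CPM. Here too the AOA+Asp libraries lay between the other groups without overlap. AOA against Mock gave a log2 fold change of -1.16 (SE 0.099) and aspartate on top of AOA one of 0.46 (SE 0.099), which made up 30.2% of the difference. Of the 31-base sequences of Idi1, 27.1% also occur in other genes, against 13.1% for Hmgcs1. Idi1 shares 323 exon bases with Gm48574 on the opposite strand. How far this affected its counts was not tested.

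Fdft1 (ENSMUSG00000021273), squalene synthase, commits the pathway to sterols. It had 63.9, 60.6 and 63.6 CPM in Mock, 32.8, 35.7 and 34.8 CPM with AOA, and 30.6, 33.4 and 34.5 CPM with AOA+Asp. The AOA and AOA+Asp libraries overlapped, and both lay below every Mock library. Its log2 fold change was -0.87 (SE 0.069) with AOA and -0.068 (SE 0.070) with aspartate against AOA; the latter was 0.018 when scaled by library totals and 0.019 with GC content and length as offsets in the fit. Fdft1 shares 774 exon bases with Ctsb on the opposite strand and 31.9% of its 31-base sequences with other genes, and Ctsb moved the other way with AOA, from a mean of 672.2 CPM in Mock to 820.7 CPM. Whether the counting used strand is not given in the sources used here, and the part of Ctsb reads in the Fdft1 values was not tested.

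Sqle (ENSMUSG00000022351), squalene epoxidase, performs the first oxygen-dependent step. Its values were 134.1, 133.0 and 123.7 CPM in Mock, 84.1, 83.6 and 81.4 CPM with AOA, and 69.0, 76.6 and 70.9 CPM with AOA+Asp. The AOA+Asp libraries were the lowest of the 3 groups, each below all AOA libraries. As log2 fold changes these were -0.65 (SE 0.069) with AOA and -0.20 (SE 0.070) with aspartate against AOA.

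Lss (ENSMUSG00000033105), lanosterol synthase, closes the sterol rings. It had 140.0, 138.9 and 134.3 CPM in Mock, 100.7, 95.8 and 96.4 CPM with AOA, and 71.3, 73.1 and 72.3 CPM with AOA+Asp. The groups descended in that order without overlap. AOA against Mock gave -0.50 (SE 0.052) on the log2 scale and aspartate against AOA a further -0.43 (SE 0.053), the lowest value with aspartate among the 8 genes. Lss shares 381 exon bases with the antisense gene 4930483K19Rik.

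Dhcr7 (ENSMUSG00000058454), which reduces 7-dehydrocholesterol to cholesterol, had the fewest counts of the 8 genes. It had 24.5, 24.6 and 26.6 CPM in Mock, 6.00, 5.62 and 6.80 CPM with AOA, and 9.52, 12.5 and 11.5 CPM with AOA+Asp. The AOA+Asp libraries lay above all AOA libraries and below all Mock libraries. Log2 fold changes were -2.04 (SE 0.10) with AOA and 0.87 (SE 0.11) with aspartate, and 26.3% of the difference was made up.

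Insig1 (ENSMUSG00000045294), the sterol-dependent anchor of SCAP, was the furthest below Mock. It had 184.4, 179.6 and 181.7 CPM in Mock and 37.8, 33.3 and 35.0 CPM with AOA, which is 19.4% of Mock. With AOA+Asp it had 74.1, 74.8 and 80.0 CPM, so the 3 groups did not overlap. These are log2 fold changes of -2.36 (SE 0.075) with AOA and 1.11 (SE 0.074) with aspartate. Of the difference between Mock and AOA, 27.9% was made up.

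Srebf2 (ENSMUSG00000022463) encodes SREBP2 itself, and its RNA does not report how much of the protein is processed. It had 201.7, 205.6 and 200.1 CPM in Mock, 159.8, 164.6 and 158.9 CPM with AOA, and 124.9, 141.6 and 135.2 CPM with AOA+Asp. As for Lss, the groups descended in that order without overlap. The difference with AOA was the smallest of the 8, at a log2 fold change of -0.33 (SE 0.072), and AOA+Asp lay a further -0.27 (SE 0.073) from AOA.

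Relative to Mock, the AOA+Asp group was lower for all 8 genes, from -1.25 for Insig1 to -0.60 for Srebf2 on the log2 scale, with a median of -0.89. The spread among the genes was narrower than with AOA alone. In this contrast 6.47% of all genes tested were called at an adjusted p under 0.05, against 46.3% between AOA+Asp and AOA. For the 4 genes that came part of the way back, replicates of AOA+Asp and AOA did not overlap in the upward direction, as for 28.2% of all genes tested. For the 4 others, the log2 fold change with aspartate was -0.43 to -0.068. So a fall that aspartate did not reverse describes Fdft1, Sqle, Lss and Srebf2 as measured, and describes Hmgcs1, Idi1, Dhcr7 and Insig1 only in that they stayed below Mock.

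**Figure D2:**
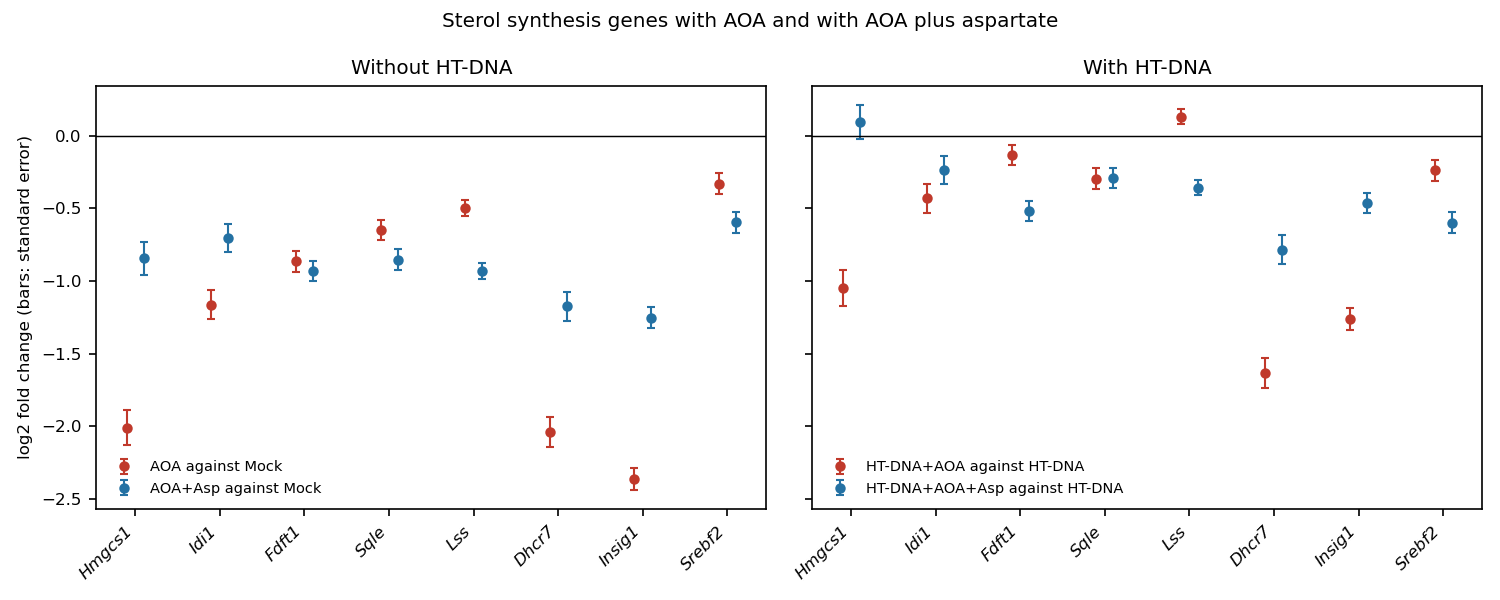
Log2 fold change of the 8 genes with AOA (red) and with AOA plus aspartate (blue), against Mock without HT-DNA (left) and against HT-DNA with HT-DNA (right); bars are standard errors of the fitted model. Without HT-DNA all points lie below 0, and the blue points span -1.25 to -0.60.

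In HT-DNA–stimulated cells AOA was followed by smaller differences. The log2 fold change of HT-DNA+AOA against HT-DNA was -1.63 (SE 0.11) for Dhcr7, -1.26 (SE 0.073) for Insig1 and -1.05 (SE 0.12) for Hmgcs1, and between -0.43 and -0.13 for Idi1, Sqle, Srebf2 and Fdft1. Lss differed from the rest, with 107.8, 110.9 and 112.6 CPM with HT-DNA and 120.8, 119.3 and 123.4 CPM with HT-DNA+AOA, a log2 fold change of 0.13 (SE 0.052). For 6 of the 8 genes (all but Fdft1 and Lss) the HT-DNA+AOA libraries lay below all HT-DNA libraries, as for 22.9% of all genes tested, and 45.4% of genes were called in this contrast. The difference of the AOA effect with and without HT-DNA was above 0 for all 8, from 0.092 for Srebf2 to 1.10 for Insig1. It subtracts the fall with AOA alone by which the genes were chosen, so the choice favours values above 0. It was not tested for the 8. Of all genes tested, this difference was called higher for 7.23% and lower for 8.26%. The value of Srebf2 (SE 0.10) was 0.00097 without HT-DNA+AOA replicate 3. With GC content and length taken into account, Srebf2 had a log2 fold change of 0.073 in place of -0.24 with AOA in HT-DNA–stimulated cells.

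The HT-DNA+AOA libraries were not alike for these genes. Hmgcs1 had 22.7, 20.5 and 14.8 CPM, Idi1 77.3, 73.3 and 58.7 CPM, and Insig1 50.7, 50.1 and 42.6 CPM in replicates 1, 2 and 3. Srebf2 went the other way, with 164.2, 173.4 and 201.4 CPM. Replicate 3 held the lowest value for the first 3 of these genes and the highest for Srebf2. Without replicate 3 the log2 fold change of HT-DNA+AOA against HT-DNA was -0.89 for Hmgcs1, -0.32 for Idi1, -1.19 for Insig1 and -0.33 for Srebf2.

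Aspartate again moved the genes in different directions on top of HT-DNA+AOA. Hmgcs1 stood at 42.0, 44.8 and 41.9 CPM with HT-DNA+AOA+Asp, which overlapped with the 37.6, 43.5 and 39.4 CPM of HT-DNA alone. Insig1 (78.4, 85.7 and 85.5 CPM, against 114.2, 117.8 and 112.0 CPM with HT-DNA) and Dhcr7 (12.5, 11.4 and 11.7 CPM, against 20.5, 19.4 and 21.4 CPM) lay above HT-DNA+AOA and below HT-DNA. These 3 genes had the only replicates that lay wholly above HT-DNA+AOA, as for 25% of all genes tested. Lss (log2 fold change -0.49, SE 0.053), Fdft1 (-0.38, SE 0.070) and Srebf2 (-0.36, SE 0.073) were lower with aspartate than with HT-DNA+AOA, and Sqle (0.0032, SE 0.070) and Idi1 (0.19, SE 0.098) lay within their overlap. In this contrast 47.7% of all genes tested were called, and between HT-DNA+AOA+Asp and HT-DNA 46.6%.

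The rule by which the genes were chosen named no effect of HT-DNA, but each HT-DNA comparison takes as its reference the Mock, AOA or AOA+Asp libraries on which the rule rested. Choosing genes that were high in Mock and low with AOA and AOA+Asp favours lower values against Mock and higher values against AOA and AOA+Asp, so the directions and p-values below are not independent of the choice. HT-DNA alone lowered 7 of the 8 genes and raised 0 (edgeR, adjusted p under 0.05; also 7 and 0 by DESeq2 and at an unadjusted p under 0.05), against 24% of all genes tested that were lower and 24.2% that were higher. Hmgcs1 fell to 46.4% of Mock, a log2 fold change of -1.11 (SE 0.11, adjusted p = 1.52e-06, edgeR), and Insig1 to 63.0%, a log2 fold change of -0.67 (SE 0.070, adjusted p = 1.79e-06, edgeR). Sqle (-0.41), Idi1 (-0.32), Lss (-0.32), Dhcr7 (-0.30) and Fdft1 (-0.28) fell less. Srebf2 had 203.7, 207.2 and 224.4 CPM with HT-DNA, overlapping with Mock, and a log2 fold change of 0.065 (SE 0.072, adjusted p = 0.479, edgeR). With GC content and length taken into account, Lss had 0.022 and was not called, and the calls of Idi1 and Dhcr7 were lost when 1 library was left out (Idi1 without HT-DNA replicate 1, adjusted p = 0.053, and Dhcr7 without HT-DNA replicate 2 or Mock replicate 3, adjusted p = 0.0521 and 0.0519, all edgeR). Without a filter on low counts the call of Dhcr7 was lost too (adjusted p = 0.0553, edgeR).

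**Figure D3:**
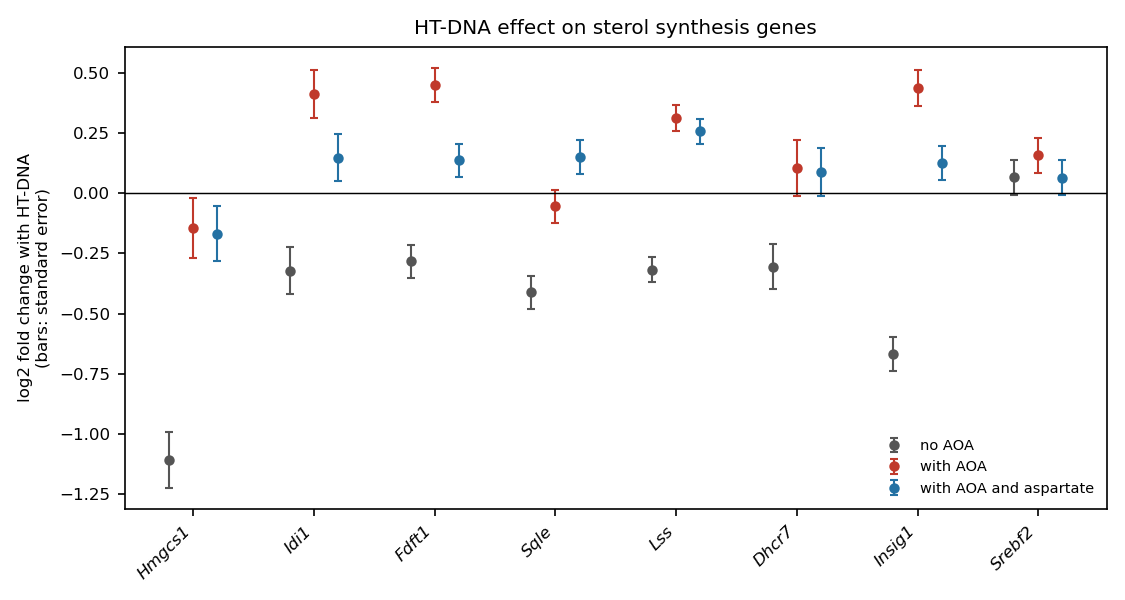
Log2 fold change of the 8 genes with HT-DNA in cells without AOA (grey), with AOA (red) and with AOA and aspartate (blue); bars are standard errors. The grey points lie below 0 except for Srebf2, although Lss had 0.022 with GC content and length offsets, where Srebf2 had -0.058, and the red points lie above 0 except for Sqle and Hmgcs1, with 0.0020 for Sqle under those offsets.

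In cells that had received AOA, where the choice of genes favours higher values, HT-DNA raised 4 of the 8 genes and lowered 0 (edgeR; also 4 and 0 by DESeq2, and 5 and 0 at an unadjusted p under 0.05), against 6.46% of all genes tested that were higher and 6.99% that were lower. Fdft1 rose from 32.8, 35.7 and 34.8 CPM to 44.7, 49.8 and 46.3 CPM (log2 fold change 0.45, SE 0.070, adjusted p = 0.00019, edgeR). Insig1 rose by 0.44 (SE 0.075, adjusted p = 0.00052, edgeR), Idi1 by 0.41 (SE 0.10, adjusted p = 0.00899, edgeR) and Lss by 0.31 (SE 0.053, adjusted p = 0.000449, edgeR). Srebf2 (0.16), Dhcr7 (0.10), Sqle (-0.056) and Hmgcs1 (-0.14) did not pass the test. Srebf2 did pass without HT-DNA+AOA replicate 1 (0.22, adjusted p = 0.0262) and with GC content and length taken into account (0.22, adjusted p = 0.00037, both edgeR), and stood at 0.066 without replicate 3. When the 6 libraries of these groups were fitted alone, 0 of the 8 passed (4 at an unadjusted p under 0.05), with adjusted p between 0.0554 and 0.162 for the 4 genes, and without AOA replicate 2 the adjusted p of Idi1 was 0.0689 (edgeR). Leaving out HT-DNA+AOA replicate 3 kept all 4 calls.

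With AOA and aspartate present, HT-DNA raised 1 of the 8 genes, Lss, from 71.3, 73.1 and 72.3 CPM to 85.0, 86.5 and 87.2 CPM (log2 fold change 0.26, SE 0.053, adjusted p = 0.0083, edgeR). The other 7 had log2 fold changes of -0.17 to 0.15. In this contrast 1.93% of all genes tested were higher and 1.52% lower. The call of Lss was lost with no filter on low counts (adjusted p = 0.125, edgeR).

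Other genes of the pathway were tested in every contrast. Of 45 in 6 lists, 44 passed the filter. Stard4 had at most 4 counts in any library. The lists were chosen with earlier results of these data known, so the counts below are not an independent check of the 8 genes. With AOA alone 23 of the 44 fell and 4 rose, against 23.2% of all genes tested that fell and 22.5% that rose. With aspartate on top of AOA 20 rose and 8 fell, against 23.4% and 22.8% of all genes. Between AOA+Asp and Mock 13 were lower and 0 higher (edgeR; also 13 and 0 by DESeq2, and 14 and 1 at an unadjusted p under 0.05), against 3.95% and 2.52% of all genes. Taking GC content and length into account gave 26 lower and 9 higher with AOA.

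Among 5 other genes of the mevalonate steps, 4 fell with AOA and 5 were lower in AOA+Asp than in Mock, against 23.2% and 3.95% of all genes tested. Mvd, mevalonate diphosphate decarboxylase, fell by 1.72 and Acat2, an acetyl-CoA acetyltransferase, by 0.98 on the log2 scale, and both rose with aspartate (0.82 and 0.44). Fdps, which makes farnesyl diphosphate, had -0.22 with AOA (adjusted p = 0.0767, edgeR) but fell with aspartate by 0.44 against AOA. Pmvk, phosphomevalonate kinase, fell with AOA (-0.41) and again with aspartate (-0.26), as Lss did. Among 8 genes of the later sterol steps, 6 fell with AOA and the same number was lower in AOA+Asp than in Mock. Cyp51, lanosterol demethylase, had 544.3, 532.3 and 548.5 CPM in Mock, 289.5, 275.9 and 296.0 CPM with AOA and 279.3, 301.5 and 298.2 CPM with AOA+Asp, with a log2 fold change of -0.92 (SE 0.058) with AOA and 0.029 (SE 0.058, adjusted p = 0.704, edgeR) with aspartate. Msmo1 (-1.27), Hsd17b7 (-1.13), Nsdhl (-0.71) and Sc5d (-0.66) also fell with AOA, and aspartate raised Msmo1, Hsd17b7 and Sc5d by 0.22 to 0.39.

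Genes outside sterol synthesis itself are given by list. With AOA, 23.2% of all genes tested fell and 22.5% rose, and in AOA+Asp against Mock 3.95% were lower and 2.52% higher. In the list of SREBP processing and sterol sensing, 4 of 7 fell and 0 rose with AOA (edgeR; also 4 and 0 by DESeq2 and at an unadjusted p under 0.05), and 0 of 7 differed between AOA+Asp and Mock by edgeR, by DESeq2 or at an unadjusted p under 0.05. Scap (0.16) and the protease gene Mbtps1 (0.07) did not pass the test with AOA, and Insig2 fell by 0.52. In the list of non-sterol isoprenoids, 3 of 9 fell with AOA, among them Ggps1 (-0.61) and Pdss2 (-0.73), 1 rose (Coq2, 0.67), and 0 of 9 differed between AOA+Asp and Mock by edgeR or DESeq2 (1 at an unadjusted p under 0.05). Of 10 genes of LDL uptake and sterol trafficking, 3 fell and 3 rose with AOA. Among those that fell was Lipa, which frees cholesterol from LDL in lysosomes, by 0.90, and it rose by 0.99 with aspartate. Those that rose were Gramd1b (0.71) and Soat1 (0.66), a sterol carrier and the enzyme that esterifies cholesterol for storage, and Npc2 (0.30), and Tmem97 (-0.25) was lower than Mock with AOA+Asp. In the list of sterol efflux and LXR, the exporter gene Abcg1 fell by 3.02 with AOA and rose by 3.28 with aspartate, and Abca1 fell by 0.56 and rose by 0.78. Abcg1 did not reach 1 CPM on average in every group, so its large ratios rest partly on few counts. Srebf1, which encodes SREBP1, was the 1 of 5 that was lower in AOA+Asp than in Mock (-0.68, SE 0.089, adjusted p = 8.25e-05, edgeR). Whether the lists differ from each other was not tested.

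**Figure D4:**
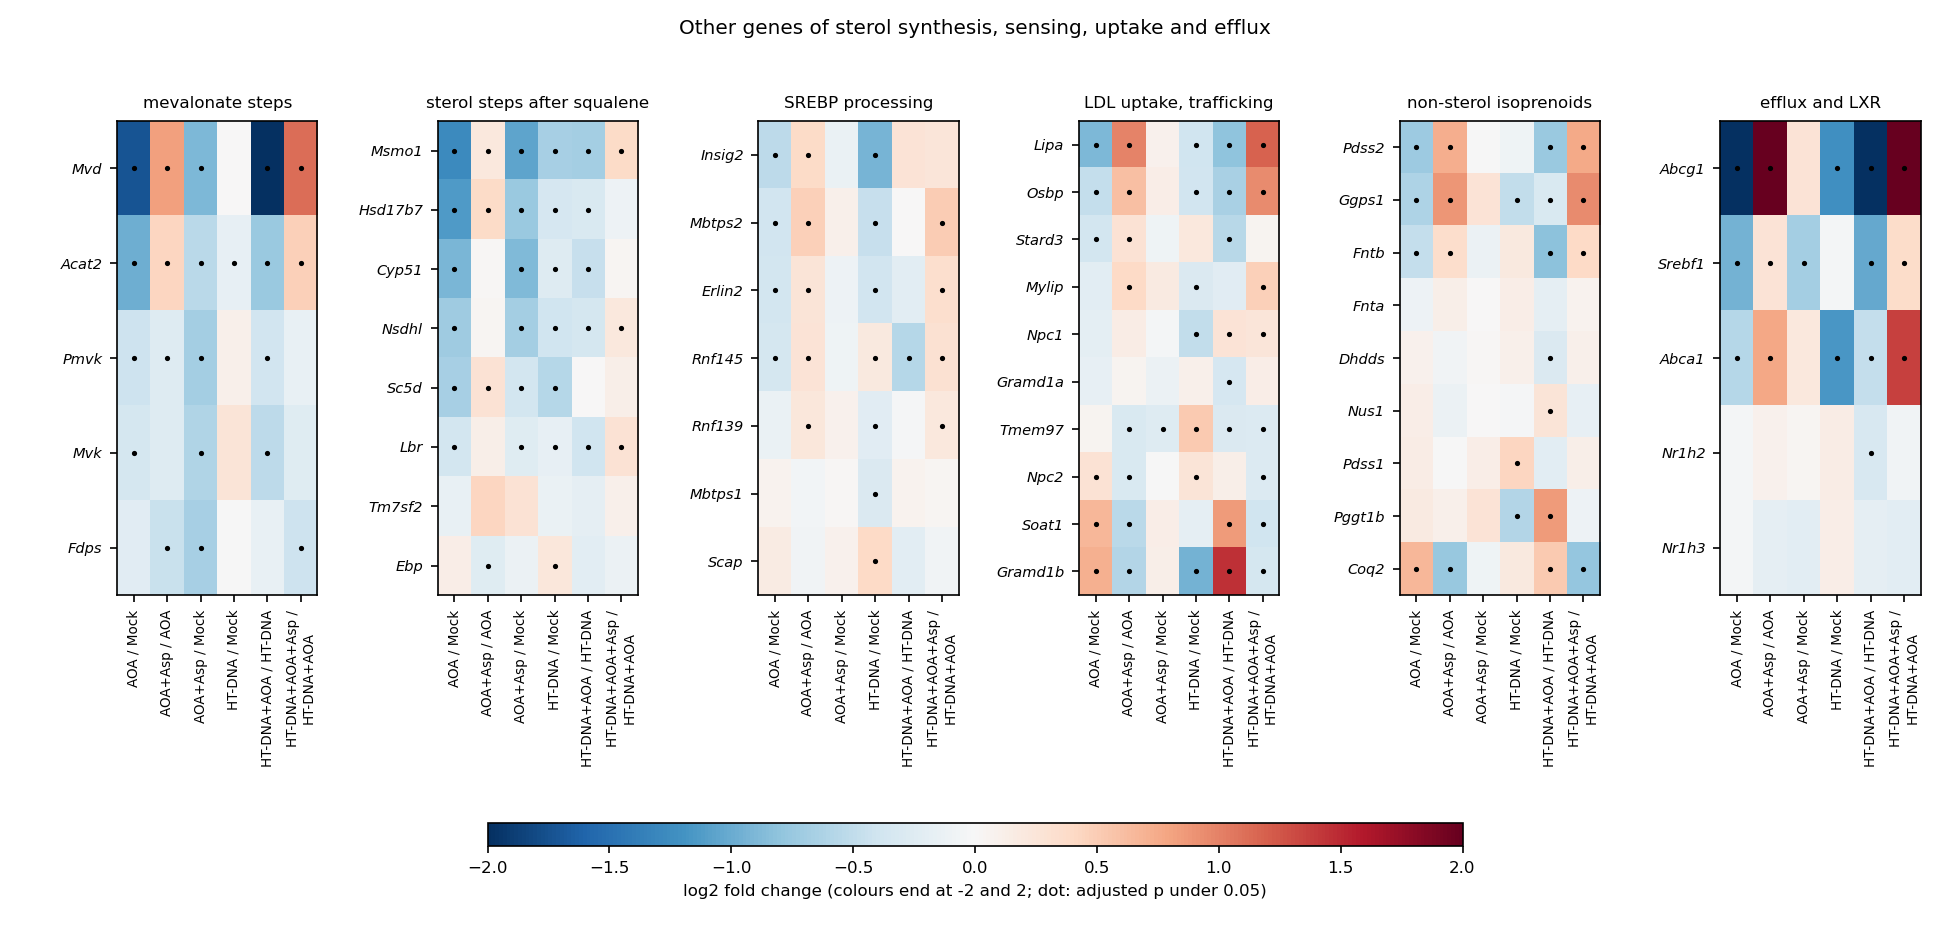
Log2 fold change of 44 other genes in 6 lists (rows, one panel a list) in 6 contrasts (columns); colours run from blue (lower) to red (higher) and end at -2 and 2, and dots mark an adjusted p under 0.05 (edgeR). In the third column, AOA+Asp against Mock, 11 of the 13 dots lie in the panels of the mevalonate and later sterol steps.

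HT-DNA alone lowered 21 and raised 6 of the 44 genes (22 and 3 when scaled by library totals), against 24% and 24.2% of all genes. In the later sterol steps 6 of 8 fell, among them Msmo1 (-0.66) and Sc5d (-0.56). In that list 1 rose, Ebp, from a mean of 56.4 CPM in Mock to 65.9 CPM with HT-DNA. In the mevalonate steps Acat2 (-0.16) fell and 4 of 5 did not pass. On top of AOA, HT-DNA raised 2 of the 44, Hsd17b7 (0.47) and Cyp51 (0.19), and lowered 6 (1 and 6 when scaled by library totals), against 6.46% and 6.99% of all genes. Of these 8 calls, 4 remained without AOA replicate 1, 4 without AOA replicate 2 and 5 without HT-DNA+AOA replicate 2. On top of AOA with aspartate it changed 0 of the 44 by edgeR, against 3 by DESeq2, 11 at an unadjusted p under 0.05, 9 when only these groups were fitted and 1 without AOA+Asp replicate 1, against 1.52% of all genes lower and 1.93% higher. AOA lowered 23 and raised 6 in HT-DNA–stimulated cells, against 22.7% and 22.8% of all genes. Aspartate on top raised 19 and lowered 6, against 23.7% and 23.9%. HT-DNA+AOA+Asp was lower than HT-DNA for 18 and higher for 12, against 23.5% and 23.2%. The AOA effect differed with and without HT-DNA for 10 of the 44, 8 of them toward higher and 2 toward lower values, against 15.5% of all genes tested (7.23% higher and 8.26% lower). Without HT-DNA+AOA replicate 3 the number was 23, and without AOA replicate 3 or HT-DNA replicate 3 it was 6. The split was 9 and 0 when library totals replaced TMM, and 8 and 5 with GC content and length taken into account. The effect of aspartate differed with HT-DNA for 0 of the 44 by edgeR or DESeq2 (4 and 5 at an unadjusted p under 0.05), against 1.04% of all genes tested, and for 1 without HT-DNA+AOA replicate 1.

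Across the 18 libraries the 8 genes were not equally alike. Pearson's r of log2 CPM ran from 0.085 between Hmgcs1 and Lss to 0.97 between Insig1 and Dhcr7. Insig1, Idi1, Dhcr7 and Hmgcs1 stood close to each other, with r of 0.82 to 0.97, and Lss, Fdft1 and Srebf2 stood close to each other, with r of 0.86 to 0.89. The sets were not cleanly apart. Sqle had r of 0.62 to 0.76 with the first set and 0.71 to 0.85 with the second, and Fdft1 had 0.40 to 0.74 with the first. Among 11446 genes with at least 1 CPM on average in every group, those outside the 8 most like their mean standardized profile were Cyp51 (r = 0.99), Acss2 (0.95), Msmo1 (0.94), Nsdhl (0.93) and Hcar1 (0.93). All points share the 6 groups and their libraries, so these r values describe the groups more than single cultures. Of these 5 genes, 3 are on the list of later sterol steps.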

How the data were processed

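RNA from 18 libraries was measured by RNA-seq. The authors deposited expected counts, estimated numbers of reads per gene without normalization; the design had assumed whole counts, 11.6% of values were not whole, and values were rounded. Aligner, counting program and genome build are not given in the sources used here. In R 4.3.3 with edgeR 4.0.16, genes were filtered with filterByExpr (minimum count 10, minimum total 15), leaving 14263, and scaled by TMM. A robust quasi-likelihood model with 1 mean per group was fitted to the 18 libraries, and genes with a Benjamini-Hochberg adjusted p under 0.05 over all genes were called. CPM carry the SD of 3 cultures. Groups came from the sample labels.

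The 8 genes and the 6 lists were chosen with earlier results of these data known. Some genes of the pathway are not reported here. The text names every one of the 8, list genes with the largest called changes with AOA, and the 5 genes most like the 8. The labels do not say that replicate numbers mark a shared batch. Same-numbered replicates deviated together (every correlation above 0.1) in 1 of 15 pairs of groups, AOA and HT-DNA+AOA (0.111 to 0.4209), and the replicate block was fitted as an alternative. Alternatives were DESeq2 1.42.0, RLE and library totals, other filters, only the libraries compared, a replicate block, each library left out, and, chosen after seeing the data, GC content and length offsets. The fit was tested on simulated data. The authors' group means were checked (largest deviation 3.3e-05) and not used. Promoter windows and gene lengths came from RefSeq and GENCODE on GRCm38.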

Additional observations from a re-analysis of the deposited data

Results flagged for a closer look

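Groups of 3 libraries are too small for a check of single outlying libraries. The AOA effect differed with and without HT-DNA for 10 of the 44 tested genes of the pathway outside the 8. These passed an adjusted p of 0.05 for an interaction term in edgeR's model, as did 15.5% of all genes tested. The number ran from 6 to 23 when single libraries were left out. In log2 units the difference was 0.82 for Hsd17b7, 0.79 for Insig2, 0.75 for Gramd1b, 0.67 for Sc5d, 0.60 for Msmo1, 0.46 for Npc1, 0.45 for Cyp51 and 0.36 for Nsdhl, which were higher with HT-DNA than the AOA effect without it would give. It was -0.38 for Dhdds and -0.34 for Tmem97.

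Among the 8 genes, replicates moved in opposite directions without overlap in several pairs of comparisons, and these differences were not tested. The genes were chosen for high Mock and low AOA and AOA+Asp values, which favours the directions of HT-DNA and the differences given here. HT-DNA lowered Insig1, Idi1, Fdft1 and Lss in cells without AOA and raised them in cells with AOA, with differences in log2 fold change of 1.10, 0.73 (0.7326), 0.73 (0.7314) and 0.63. Without AOA, HT-DNA replicates lay wholly lower for 30.6% of all genes tested, and with AOA wholly higher for 9.7%. In cells with AOA and aspartate, every HT-DNA library of Fdft1, Lss and Sqle lay above those without HT-DNA, against below in cells without AOA, with differences of 0.42, 0.57 and 0.56. With AOA and aspartate this upward separation held for 13.7% of all genes tested. Of Fdft1, Lss and Sqle, only Lss passed the test there (adjusted p = 0.373 for Fdft1 and 0.303 for Sqle, edgeR). Lss was lower with AOA in cells without HT-DNA and higher with AOA in HT-DNA–stimulated cells, a difference of 0.63. Replicates lay wholly lower for 29.6% of all genes tested in the first comparison and wholly higher for 21.9% in the second.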

How the results depend on the processing

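Of 208 recomputed counts of calls, 190 stayed within 1.5 times. The number of the 8 genes called for HT-DNA on top of AOA went from 4 to 0 when only the compared groups were fitted, and on top of AOA with aspartate from 1 to 0 with no filter on low counts. Of the 44 pathway genes, the 8 called for HT-DNA on top of AOA became 2 with only the compared groups, 5 with no filter and 4 to 12 when single libraries were left out. On top of AOA with aspartate the 0 became 3 by DESeq2, 6 with GC content and length offsets, 1 with no filter, 9 with only the compared groups and 0 to 1 over single libraries left out. The 10 genes whose AOA effect differed with HT-DNA became 6 to 23 over single libraries left out, and the 0 genes whose aspartate effect differed became 0 to 1, also 1 with GC content and length offsets and with no filter. The cause was not tested.

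With GC content and length offsets, the log2 fold change crossed 0 for Srebf2 (-0.058), Lss (0.022) and Lbr (0.075) with HT-DNA, for Sqle with HT-DNA on top of AOA (0.0020) and for Npc1 with aspartate in HT-DNA–stimulated cells (-0.0062). Srebf2 with HT-DNA was also below 0 (-0.046) when scaled by library totals. Hmgcs1 with HT-DNA on top of AOA ran from -0.27 to 0.0097 over single libraries left out, and Dhcr7 with HT-DNA on top of AOA and aspartate from -0.014 to 0.17. Library totals moved the median of all genes to -0.12 with AOA and with HT-DNA, from 0.015 and -0.0076. With the replicate block, 7, 4 and 1 of the 8 genes were called for HT-DNA in the 3 settings, as without it, and 9 in place of 8 pathway genes for HT-DNA on top of AOA, where the numbers may pair the cultures; no count moved by over 1.5 times under the block. Depth limits Dhcr7 most, the gene with fewest counts of the 8.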
